A study of Homo sapiens with 16 samples.

Results

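The neurotransmitter receptor genes are the genes that encode the receptors for GABA, glutamate, acetylcholine, serotonin, dopamine and glycine. The set was chosen with earlier results of these data known, and its members were then taken by symbol. They are every row of the deposited count table that starts with a receptor prefix (GABR, GRIA, GRIK, GRIN1, GRIN2, GRIN3, GRM, CHRN, CHRM, HTR, DRD, GLRA or GLRB) and names a plain receptor gene. Of 112 rows with such a prefix, 13 antisense genes, 4 HTRA protease genes and 4 pseudogenes were left out, and the remaining 91 of the 35993 rows of the table are described here. The samples were 4 human bladder cancer cell lines, labelled 253J, J82, RT112 and TCCSUP and wild type, each given vehicle (DMSO 0.01%, named control here) or the histone deacetylase (HDAC) inhibitor CM-1758 for 48 h, with 2 RNA-seq libraries per group and 16 libraries in all. CM-1758 was used at the IC50 of each cell line, a concentration set by its effect on cell survival, so the doses differed between cell lines and no response was compared at a matched dose. Each cell line stands for 1 tumour, the 2 libraries of a group came from independent biological replicates of the same line, and the labels do not name a non-malignant or neuronal sample.

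Neurotransmitter receptors are of 2 kinds. Ligand-gated ion channels (GABA-A, AMPA, kainate, NMDA, nicotinic, glycine and serotonin type 3 receptors) are built from several subunits, usually from different genes, and pass ions within milliseconds of transmitter binding. Metabotropic glutamate, muscarinic, dopamine and the other serotonin receptors signal through G proteins instead. Outside the nervous system many of these genes are kept silent, among others by the repressor REST, which recruits HDAC-containing corepressor complexes to neuronal genes, and HDACs remove the acetyl groups that accompany active chromatin.

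Start-site sequences are shown for 4 members that the results turn on: GABRB2, which rose in all 4 cell lines, GRIA2 and CHRM4, which rose in 3, and GABRP, which fell. Each window runs from 250 bases before to 50 bases after the RefSeq start on the coding strand (build GRCh38.p14), at chr5:161546676-161546975 (minus strand) for GABRB2, chr4:157219870-157220169 (plus) for GRIA2, chr11:46391727-46392026 (minus) for CHRM4 and chr5:170783475-170783774 (plus) for GABRP. Capitals mark every match, on either strand, to a GC box (GGGCGG, read as CCGCCC on the opposite strand) or to the right arm of the REST-binding element RE1 (GGACAG).
GABRB2: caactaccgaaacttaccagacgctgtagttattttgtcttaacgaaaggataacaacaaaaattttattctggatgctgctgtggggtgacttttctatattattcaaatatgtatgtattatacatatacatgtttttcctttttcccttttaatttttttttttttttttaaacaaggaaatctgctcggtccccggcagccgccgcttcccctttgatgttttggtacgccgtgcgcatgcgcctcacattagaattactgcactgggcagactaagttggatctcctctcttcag
GRIA2: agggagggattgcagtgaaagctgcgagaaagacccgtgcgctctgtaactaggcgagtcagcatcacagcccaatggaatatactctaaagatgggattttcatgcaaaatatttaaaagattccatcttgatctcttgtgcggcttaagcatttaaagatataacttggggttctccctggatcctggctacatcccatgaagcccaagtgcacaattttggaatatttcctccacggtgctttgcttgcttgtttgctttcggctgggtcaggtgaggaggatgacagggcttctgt
CHRM4: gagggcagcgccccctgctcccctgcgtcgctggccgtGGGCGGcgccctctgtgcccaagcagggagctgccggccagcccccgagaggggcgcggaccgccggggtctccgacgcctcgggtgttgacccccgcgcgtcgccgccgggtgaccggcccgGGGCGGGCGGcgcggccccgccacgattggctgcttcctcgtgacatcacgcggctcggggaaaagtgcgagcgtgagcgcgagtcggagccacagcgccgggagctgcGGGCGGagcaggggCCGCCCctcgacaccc
GABRP: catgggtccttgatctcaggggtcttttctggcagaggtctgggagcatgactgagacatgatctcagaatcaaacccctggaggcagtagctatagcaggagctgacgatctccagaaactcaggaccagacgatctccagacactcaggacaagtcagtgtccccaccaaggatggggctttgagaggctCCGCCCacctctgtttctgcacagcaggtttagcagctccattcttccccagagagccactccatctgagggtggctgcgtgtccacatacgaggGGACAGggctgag

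The 4 windows differed widely in base composition. GC made up 39.0% of the bases for GABRB2, 46.3% for GRIA2, 78.3% for CHRM4 and 56% for GABRP. The ratio of observed to expected CpG dinucleotides, which is high in CpG islands, was 0.976, 0.44, 0.957 and 0.213 in the same order. CHRM4 held 5 GC box matches, of which a pair overlaps, whereas GABRB2 and GRIA2 held neither motif and GABRP held 1 of each. A match is a string of letters and not a measured binding site.

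Library totals ranged from 22506431 to 32537104 counts, and the count table holds 1 in 2.27% of its cells and 0 in 39.5%, so a level of a few counts is close to the detection limit. Levels are given as CPM, the counts per 1000000 of the TMM-normalized library size. The epithelial keratin KRT18 was present in every group, at group means of 163 to 2906 CPM, whereas the uroplakin UPK3A, a marker of differentiated urothelium, was at 0 in all 8 control libraries. UPK3A does not stand for the other markers. Of 18 epithelial and urothelial markers, 1 was at 0 in both control libraries of RT112, 3 in TCCSUP, 6 in J82 and 7 in 253J. Libraries of a group correlated with each other at a Pearson r of 0.983 to 0.991 over genes.

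Receptor genes were detected more widely with CM-1758. These are bulk libraries, in which a rise in few cells and a small rise in all cells cannot be told apart. A gene was taken as detected in a group when both of its libraries held at least 10 counts. By this measure 22 of the 91 genes were detected in 253J control and 29 with CM-1758, and the numbers were 16 and 30 in J82, 17 and 33 in RT112, and 21 and 41 in TCCSUP. Over all 35993 rows the detected share went from 41.8% to 49.4% in TCCSUP, from 42.1% to 46.7% in RT112, from 41% to 45.2% in J82 and from 41.8% to 46% in 253J, so the detected share of receptor genes lay under that of all rows in every group. Of the receptor genes not detected in a control group, 30% were detected with CM-1758 in TCCSUP, 21.6% in RT112, 20% in J82 and 14.5% in 253J, against 14.9%, 10.5%, 8.95% and 9.48% of all undetected rows. In the other direction, 3 members were detected only in control in 253J, 1 each in J82 and TCCSUP and 0 in RT112.

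**Figure D1:**
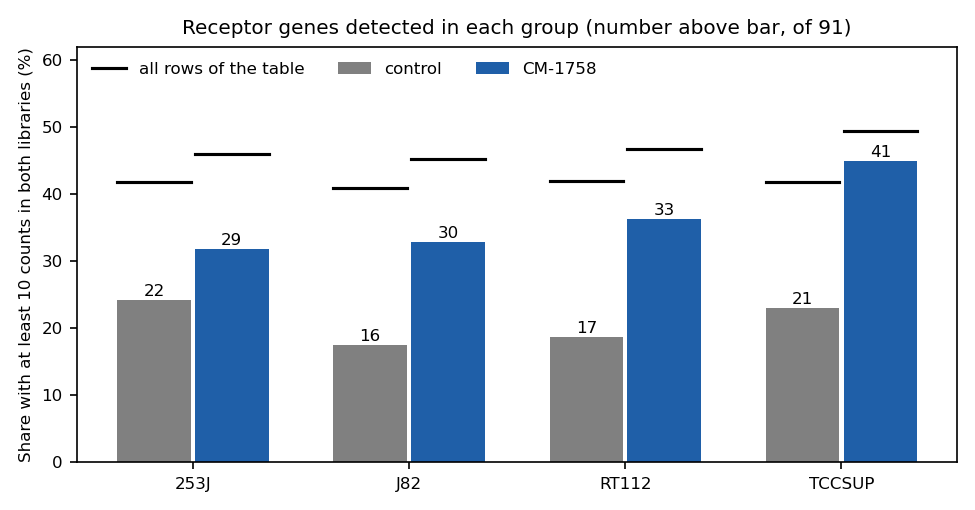
Share of the 91 receptor genes (bars, %) with at least 10 counts in both libraries of a group, for control (grey) and CM-1758 (blue) in each cell line, with the number of genes above each bar; black lines give the same share over all rows of the table. The bars rise from 16 to 22 genes in control to 29 to 41 genes with CM-1758 and stay under the black lines in all 8 groups.

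Across the study, 42 members were detected in at least 1 control group, 54 in at least 1 treated group and 34 in none. Only 5 were detected in all 4 control groups (CHRNA5, CHRNA10, CHRNB1, GLRB and HTR1D), and 12 were detected in all 4 treated groups. Of the 91, 4 had 0 counts in all 16 libraries (GABRA6, GRM7, HTR3D and HTR4), which allows up to 3 counts per library, an allowance for counting error alone. A further 28 had 0 counts in all 8 control libraries and some count with CM-1758, and 5 of these reached detection in a treated group (CHRNA4, DRD2, GRM4, GRM6 and HTR3A). HTR3A was the 1 member with 0 counts in every control library that was detected in all 4 treated groups.

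Differences were tested with edgeR's quasi-likelihood test over the 21297 genes that passed a filter on low counts, 58 of them receptor genes. For 16 of the 58, no control group reached detection, so they passed the filter through treated libraries in which they were high. A gene was called higher ("rose") at a log2 fold change above 2 and an adjusted p under 0.01 and called lower ("fell") at a log2 fold change below -2 with the same p. On this rule 10 members rose in 253J against 9.43% of all genes tested, 16 in J82 against 8.81%, 20 in RT112 against 11.4% and 22 in TCCSUP against 14.2%. As shares of the 58 members tested these were 17.2%, 27.6%, 34.5% and 37.9%. Falls were fewer than rises, with 4 members in TCCSUP, 2 in RT112, 1 in J82 and 1 in 253J. As shares of the 58 these were 6.9%, 3.45%, 1.72% and 1.72%, against 3.31%, 1.39%, 1.24% and 3.5% of all genes. The number of risers in 253J was 5 without control replicate 2, that in RT112 was 13 without either control library, and that in TCCSUP was 13 without control replicate 1.

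Most members that rose were at a low level in control. Among tested members with a mean under 1 CPM in control, 8 of 41 rose in 253J (20.9% of all such genes), 14 of 45 in J82 (18.8%), 20 of 47 in RT112 (26.4%) and 22 of 44 in TCCSUP (35.2%). As shares these were 19.5%, 31.1%, 42.6% and 50%, so the share in 253J was near that of other weakly expressed genes. Of the members at 1 CPM or more in control, 2 of 17 rose in 253J (3.19% of such genes), 2 of 13 in J82 (3.05%), and 0 of 11 in RT112 and 0 of 14 in TCCSUP (2.85% in each line). Falls in this class numbered 1 of 17 in 253J (5.2% of such genes), 1 of 13 in J82 (1.78%), 2 of 11 in RT112 (1.99%) and 3 of 14 in TCCSUP (4.91%). At an adjusted p under 0.05 with no limit on the fold change, 17, 20, 29 and 27 members were higher (28.8%, 24%, 27.4% and 32% of all genes) and 7, 3, 3 and 10 were lower (22.4%, 18.5%, 20.2% and 22.1%) in 253J, J82, RT112 and TCCSUP.

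In total 36 members rose in at least 1 cell line (25.2% of all genes tested), 7 fell in at least 1 (7.15%) and GRIN2A did both (1.26%). A further 16 were tested with no call and 33 were too low to test. GABRB2 and HTR3A rose in all 4 cell lines, against 1.58% of genes tested, and with 8 others rose in at least 3, against 5.19%. Over the tested members the log2 fold change had a median of 2.91 in TCCSUP, 3.12 in RT112, 2.08 in J82 and 0.33 in 253J, against 0.20, 0.12, 0.05 and 0.10 over all genes. Fitted values for genes at 0 in one group depend on the prior count, and with such genes set at the bound that 3 counts per library allows, the members' medians in this order were 1.05, 1.10, 0.47 and 0, against 0.14, 0.03, 0 and 0.

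GABA-A receptors are chloride channels of 5 subunits, most often of the alpha, beta and gamma classes, and mediate fast inhibition. Of 19 subunit genes 13 were tested, and in at least 1 cell line 7 rose (25.2% of all genes tested) and 2 fell (7.15%). GABRB2, a beta subunit, had 0 and 0 counts in control and 93 and 101 with CM-1758 in J82, an at least 30.3-fold higher level (adjusted p = 2e-05). In RT112 it went from 0 and 0 to 38 and 51 counts, at least 17.2-fold higher (adjusted p = 7.03e-05), and in TCCSUP from 0 and 0 to 343 and 296, at least 105-fold higher (adjusted p = 1.13e-06). 253J already expressed it in control, with 77 and 190 counts, and reached 473 and 849 (log2 fold change 2.24 ± 0.39, SE, adjusted p = 0.000419). No treated library overlapped a control library in any line.

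GABRB1, another beta subunit, rose in 253J, from 5 and 11 to 65 and 110 counts (log2 fold change 3.38 ± 0.67, adjusted p = 0.00114). It was at 43 and 83 in TCCSUP control against 24 and 15 treated, a log2 fold change of -1.71 ± 0.61 (adjusted p = 0.0317).

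GABRD, the delta subunit of receptors outside synapses, rose in 3 lines. J82 went from 0 and 0 to 53 and 95 counts, at least 22.9-fold higher (adjusted p = 1.06e-05), and TCCSUP from 0 and 0 to 209 and 165, at least 61.3-fold higher (adjusted p = 1.09e-06). RT112 held 13 and 13 counts in control and 187 and 180 with CM-1758 (log2 fold change 4.02 ± 0.41, adjusted p = 1.5e-05). In 253J the gene was at 0 in all 4 libraries. GABRQ, the theta subunit, rose in 253J from 0 and 0 to 22 and 16 counts (at least 6.31-fold, adjusted p = 1.36e-05) and in J82 from 57 and 51 to 337 and 368 (log2 fold change 2.61 ± 0.22, adjusted p = 8.59e-07). It was higher by 1.12 ± 0.19 in RT112 and 1.19 ± 0.19 in TCCSUP on the log2 scale, both under the fold limit.

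Alpha subunits carry, with beta, the GABA-binding site. GABRA3 rose in 253J from 0 and 0 to 14 and 25 (at least 6.25-fold, adjusted p = 0.000624), whereas in TCCSUP it was at 1158 and 1035 in control and 577 and 507 treated, a log2 fold change of -1.04 ± 0.29 (adjusted p = 0.00765). The gamma subunit genes GABRG1 and GABRG3 were too low to test.

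The 2 members of the family that fell were expressed in control. GABRE, the epsilon subunit, had 2317 and 2448 counts in RT112 control and 275 and 549 with CM-1758 (log2 fold change -2.32 ± 0.32, adjusted p = 7.73e-05). In TCCSUP it was at 1769 and 1878 in control and 956 and 761 treated, a log2 fold change of -1.11 ± 0.31 (adjusted p = 0.0087), and in J82 the control counts of 867 and 431 spanned the treated counts of 591 and 520. GABRP, the pi subunit, which is known from epithelial tissues rather than brain, was present in RT112 alone, at 1625 and 950 counts in control and 103 and 60 treated, where it fell by 3.75 ± 0.39 on the log2 scale (adjusted p = 5.95e-05), a call lost with DESeq2 (adjusted p = 0.654). GABRP had 0 counts in the 12 libraries of the other lines. The retinal subunit GABRR2 had no call at counts of 0 to 111.

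Ionotropic glutamate receptors are cation channels of the AMPA, kainate and NMDA classes. Of the 4 AMPA subunits, GRIA2, which makes the channel impermeable to calcium, rose in 3 lines. In J82 it went from 0 and 0 to 329 and 462 counts, at least 123-fold higher (adjusted p = 2.67e-06). In TCCSUP it went from 0 and 0 to 51 and 27, at least 12.7-fold (adjusted p = 0.000124), and in 253J from 0 and 4 to 52 and 101 (log2 fold change 5.12 ± 0.71, adjusted p = 7.35e-05). RT112 had 0 and 0 in control and 6 and 5 treated (adjusted p = 0.0164), which gave no call.

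The other AMPA subunits did not rise in any line. GRIA3 had 68 and 101 counts in 253J control and 6 and 12 treated and fell by 3.27 ± 0.75 on the log2 scale (adjusted p = 0.00451). This was the 1 fall called in 253J, and it was lost when any 1 of the 4 libraries was left out (adjusted p up to 0.0459) and with DESeq2. GRIA1 was at 191 and 253 in TCCSUP control and 55 and 94 treated, a log2 fold change of -1.58 ± 0.56 (adjusted p = 0.0309), and GRIA4, at 52 and 64 in 253J control and 44 and 48 treated, had an adjusted p of 0.597.

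All 3 kainate subunits that were tested rose in at least 1 line, against 25.2% of all genes tested. GRIK5, a high-affinity kainate subunit that needs another kainate subunit to form a channel, went from 0 and 0 to 53 and 45 counts in RT112 (at least 19.0-fold, adjusted p = 0.000281). It also rose from 12 and 15 to 96 and 114 in 253J (log2 fold change 2.91 ± 0.72, adjusted p = 0.00356) and from 0 and 6 to 36 and 36 in TCCSUP (3.52 ± 0.92, adjusted p = 0.00516). In J82, with 7 and 0 counts in control and 8 and 29 treated, there was no call. GRIK2 rose in 253J from 20 and 15 to 86 and 152 (2.71 ± 0.42, adjusted p = 6.91e-05), and GRIK4 in TCCSUP from 0 and 0 to 23 and 38 (at least 10.1-fold, adjusted p = 0.00158).

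NMDA receptors require the GRIN1 subunit, joined by GRIN2 or GRIN3 subunits. GRIN1 rose in the 3 lines other than 253J. It went from 0 and 0 to 76 and 65 counts in RT112 (at least 27.3-fold, adjusted p = 5.98e-05) and from 0 and 0 to 88 and 83 in TCCSUP (at least 28.1-fold, adjusted p = 4.2e-05). In J82 it went from 0 and 4 to 35 and 59 (log2 fold change 4.37 ± 0.76, adjusted p = 0.000812). In 253J it was at 0 in all 4 libraries, although that line expressed GRIN2A and GRIN2B in control. The exons of GRIN1 overlap those of LRRC26 on the opposite strand, and whether the counting used the strand is not given in the sources used here.

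GRIN2A, a subunit of mature synapses, was the 1 member called in both directions. It rose in RT112 from 0 and 0 to 73 and 79 counts (at least 29.4-fold, adjusted p = 3.76e-05) and in J82 from 0 and 0 to 22 and 6 (at least 4.44-fold, adjusted p = 0.00596). It fell in TCCSUP from 284 and 523 to 60 and 135 (log2 fold change -2.05 ± 0.45, adjusted p = 0.00187). In 253J it went from 520 and 485 to 100 and 175, a log2 fold change of -1.92 ± 0.44 (adjusted p = 0.0026) just inside the fold limit. The lines in which the gene was at 0 in control went up and the lines with 284 counts or more in each control library went down, so that treated libraries spanned 6 to 175 counts while controls spanned 0 to 523. A line at 0 in control cannot go lower, so this pattern was in part fixed in advance.

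GRIN2B, the subunit of immature synapses, was at 764 and 904 counts in 253J control and 371 and 501 treated (log2 fold change -0.98 ± 0.38, adjusted p = 0.0489) and had no call. GRIN2D, at 321 and 364 in RT112 control and 553 and 583 treated, also had none (0.94 ± 0.47, adjusted p = 0.117). GRIN2C rose in RT112 from 8 and 4 to 23 and 20 (2.04 ± 0.56, adjusted p = 0.00898) and in TCCSUP from 0 and 0 to 5 and 9 (at least 2.32-fold, adjusted p = 0.00235). 253J held 101 and 62 in control and 33 and 38 treated (-1.22 ± 0.44, adjusted p = 0.0329). GRIN3B, a glycine-binding subunit, rose in RT112 from 34 and 16 to 107 and 103 (2.29 ± 0.60, adjusted p = 0.00585) and in J82 from 1 and 0 to 17 and 15, a ratio of 30.0 with a 95% counting interval of 5.01 to 1220 (adjusted p = 0.00558). GRIN3B also overlaps TMEM259 on the opposite strand.

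Metabotropic glutamate receptors couple to G proteins, and 4 of the 5 tested members rose in at least 1 line, against 25.2% of all genes tested. Of these, GRM4 and GRM6 had 0 counts in all 8 control libraries and passed the filter through treated ones. GRM8, an inhibitory presynaptic receptor, went from 0 and 0 to 13 and 13 counts in RT112 (at least 5.03-fold, adjusted p = 0.00138). It went from 12 and 2 to 49 and 26 in J82 (log2 fold change 2.31 ± 0.63, adjusted p = 0.0085) and from 2 and 6 to 52 and 55 in TCCSUP (3.69 ± 0.67, adjusted p = 0.000387). 253J, with the highest control level of the lines at 54 and 85 counts, held 92 and 113 treated and had no call. GRM4, of the same inhibitory group, was at 0 in all 8 controls and reached 35 and 22 in RT112 (at least 11.1-fold, adjusted p = 0.00293) and 36 and 54 in TCCSUP (at least 14.9-fold, adjusted p = 0.00147). GRM6, the receptor of retinal ON bipolar cells, reached 46 and 49 counts from 0 and 0 in RT112 (at least 18.4-fold, adjusted p = 0.000475, and 0.0263 with DESeq2). RT112 control held 0 counts of all 8 genes of this family.

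Nicotinic acetylcholine receptors are cation channels of 5 subunits. Of the 10 tested subunits, 5 rose in at least 1 line, against 25.2% of all genes tested, while none fell past the fold limit. CHRNB2, the beta subunit of the main brain receptor, went from 2 and 3 to 549 and 449 counts in TCCSUP, a log2 fold change of 7.55 ± 0.54 (adjusted p = 1.07e-07). In RT112 it went from 6 and 0 to 83 and 86 (4.97 ± 0.54, adjusted p = 6.73e-06) and in J82 from 0 and 0 to 50 and 48 (at least 15.3-fold, adjusted p = 1.31e-05). CHRNB2 was detected in all 4 treated groups, but in 253J the counts of 8 and 6 in control and 15 and 18 treated gave no call.

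CHRNA3, the alpha subunit of autonomic ganglia, rose in the same 3 lines. J82 went from 0 and 0 to 71 and 47 counts (at least 18.5-fold, adjusted p = 5.15e-05), RT112 from 2 and 10 to 94 and 105 (log2 fold change 4.23 ± 0.63, adjusted p = 9.14e-05) and TCCSUP from 5 and 0 to 132 and 122 (5.58 ± 0.71, adjusted p = 1.79e-05). In 253J it stayed at 5 and 4 in control and 5 and 5 treated. CHRNA4, the usual partner of CHRNB2 in brain, rose in RT112 alone, from 0 and 0 to 89 and 77 (at least 32.1-fold, adjusted p = 0.00027, and 0.083 with DESeq2). CHRNA6 rose in RT112 from 0 and 0 to 10 and 5 (adjusted p = 0.00996).

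CHRNA7, which forms a channel by itself, rose in RT112 from 9 and 3 to 64 and 82 counts (log2 fold change 3.79 ± 0.48, adjusted p = 1.58e-05). In TCCSUP it went from 0 and 2 to 71 and 88, a ratio of 78.4 with a 95% counting interval of 21.3 to 653 (adjusted p = 1.87e-06). In 253J it was already expressed, at 222 and 239 in control and 323 and 368 treated. CHRNA7 shares most of its sequence with the duplicated gene CHRFAM7A, so how reads were divided between them is uncertain.

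CHRNA5, an accessory subunit, was the one nicotinic gene at high level in every group. It was at 1526 and 1576 counts in 253J control and 545 and 832 treated (log2 fold change -1.22 ± 0.16, adjusted p = 1.47e-05). The counts were 1341 and 1464 against 706 and 823 in RT112 (-0.66 ± 0.16, adjusted p = 0.00298), and 632 and 647 against 1211 and 1175 in J82 (0.81 ± 0.16, adjusted p = 0.000838). In TCCSUP the control counts of 1227 and 1178 lay within the treated counts of 1533 and 1128. None passed the fold limit, and the direction differed between lines. CHRNA3 and CHRNA5 overlap at their ends on opposite strands. In J82 both were higher with CM-1758, whereas in RT112 CHRNA3 rose and CHRNA5 was lower. Whether reads of one gene were counted for the other was not tested.

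CHRNB1, the beta subunit of muscle receptors, was at 1062 and 896 counts in 253J control and 310 and 388 treated, a log2 fold change of -1.52 ± 0.25 (adjusted p = 0.000112). It was also lower at an adjusted p under 0.05 in J82, by -1.10 ± 0.27, and in TCCSUP, by -1.94 ± 0.31, and in RT112 its value of -0.81 ± 0.34 had an adjusted p of 0.0605. CHRNA10, a subunit of hair cell receptors, was the opposite case, at 14 and 21 in TCCSUP control and 66 and 69 treated (1.92 ± 0.36, adjusted p = 0.000356), with no difference past an adjusted p of 0.05 in the other 3 lines. Among the other muscle subunits, CHRND and CHRNG were at 0 to 7 counts in every library, CHRNA1 reached at most 19 counts, in TCCSUP control, and CHRNE at most 14, in 253J with CM-1758.

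**Figure D2:**
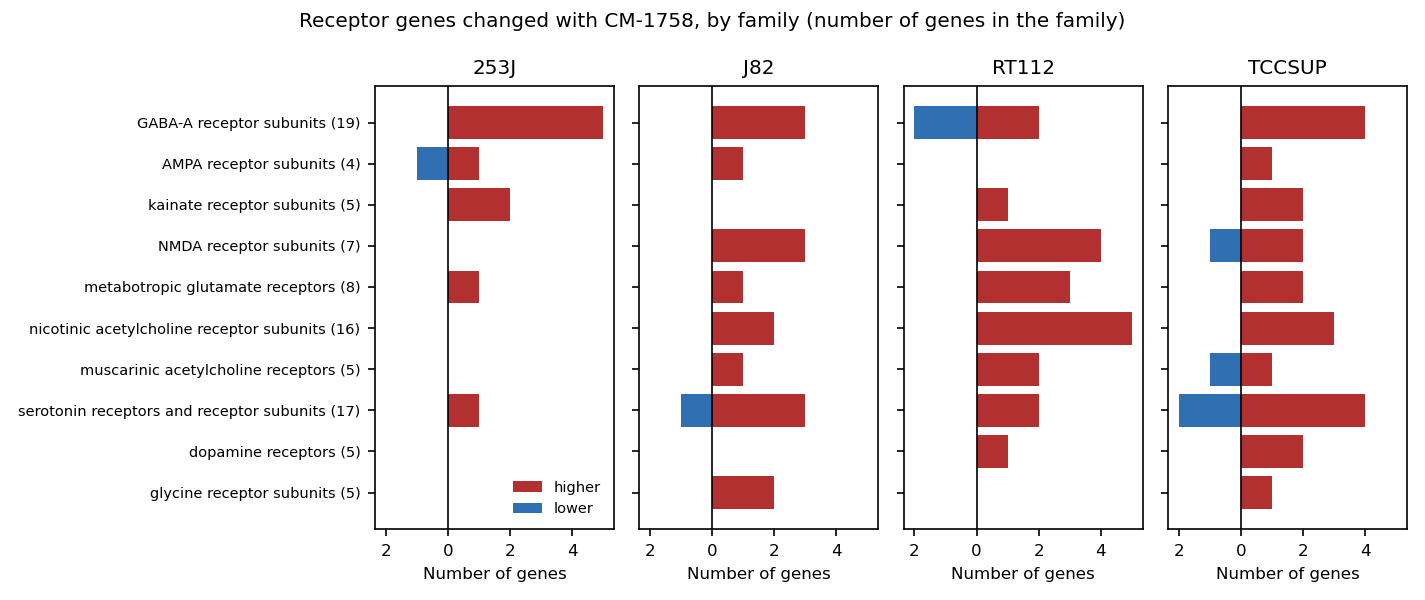
Number of receptor genes per family (rows, with the family size) that rose (red, right of 0) or fell (blue, left of 0) with CM-1758 in each cell line, at a log2 fold change beyond 2 and an adjusted p under 0.01. The nicotinic family reaches 5 risers in RT112 and 0 in 253J, while the GABA-A family reaches 5 in 253J and has 2 of its members lower in RT112.

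Muscarinic receptors are the G protein-coupled receptors for acetylcholine, and those of the bladder wall drive its contraction. CHRM4, an inhibitory receptor of the striatum, went from 17 and 5 to 698 and 722 counts in J82 (log2 fold change 5.90 ± 0.37, adjusted p = 3.44e-08). It went from 4 and 3 to 263 and 290 in RT112 (6.46 ± 0.43, adjusted p = 4e-08) and from 10 and 11 to 308 and 306 in TCCSUP (4.83 ± 0.36, adjusted p = 9.11e-08). In 253J it was at 3 and 6 in control and 7 and 9 treated, with no call. The replicates of each group lay close together, and CHRM4 was among the members called under every alternative tried in all 3 lines.

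CHRM2, the main muscarinic receptor of smooth muscle by number, was found in TCCSUP, at 852 and 1257 counts in control and 81 and 77 treated, where it fell by 3.75 ± 0.54 on the log2 scale (adjusted p = 0.000234), a call lost with DESeq2 (adjusted p = 0.627). J82 and RT112 had 0 counts in all libraries, and 253J had 17 counts in 1 treated library only. CHRM3, the receptor that drives detrusor contraction, rose in RT112 from 0 and 0 to 16 and 11 (at least 5.24-fold, adjusted p = 0.000397). It was at 169 and 240 in 253J control against 195 and 274 treated and at 90 and 75 against 149 and 135 in TCCSUP, with no call. TCCSUP thus held 2 muscarinic genes that moved in opposite directions, CHRM4 and CHRM2, and its summed muscarinic level was 37.7 to 51.4 CPM in control libraries and 20.1 to 20.7 CPM in treated ones.

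Serotonin acts on one channel type, the 5-HT3 receptor, and several G protein-coupled types. HTR3A, the subunit that every 5-HT3 receptor contains, had 0 counts in all 8 control libraries. With CM-1758 it had 52 and 109 counts in 253J (at least 25.7-fold higher, adjusted p = 2.1e-05), 21 and 12 in J82 (at least 5.19-fold, adjusted p = 0.00105), 37 and 34 in RT112 (at least 13.7-fold, adjusted p = 0.000108) and 61 and 45 in TCCSUP (at least 17.4-fold, adjusted p = 4.96e-05). All 8 treated libraries thus held counts. Among the companion subunits, HTR3D was at 0 throughout, HTR3B and HTR3C stayed at 0 to 9 counts, and HTR3E rose in TCCSUP from 0 and 0 to 12 and 25 (at least 6.13-fold, adjusted p = 0.00908).

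HTR2C, a receptor of the choroid plexus and brain, rose in J82 from 12 and 4 to 137 and 234 counts (log2 fold change 4.41 ± 0.48, adjusted p = 8.08e-06) and in TCCSUP from 7 and 8 to 78 and 52 (3.07 ± 0.50, adjusted p = 0.000148). RT112, which expressed it in control at 114 and 118, held 86 and 113 treated. Its relative HTR2B, found in many peripheral tissues, fell to 0 and 0 counts in J82 from 66 and 48, at least 20.3-fold lower (adjusted p = 0.000325), and in TCCSUP from 6 and 14, at least 3.36-fold lower (adjusted p = 0.00688). These closely related receptors moved in opposite directions in J82 and TCCSUP.

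HTR7, a receptor that raises cyclic AMP, was the member with the highest level per kilobase of exon in any control group, at 34.5 CPM per kb in TCCSUP, ahead of GABRE at 25.2 in RT112 and 22.5 in TCCSUP. In TCCSUP it had 3085 and 2447 counts in control and 1322 and 1158 treated (log2 fold change -1.18 ± 0.25, adjusted p = 0.000978), and in J82 it rose from 12 and 7 to 113 and 68 (3.15 ± 0.44, adjusted p = 4.68e-05). RT112, at 619 and 539 in control and 451 and 591 treated, showed overlapping groups. HTR1D, an inhibitory receptor and the target of triptans, fell in TCCSUP from 597 and 715 to 83 and 111 (-2.77 ± 0.30, adjusted p = 2.94e-06). It was at 310 and 244 against 135 and 104 in J82 (-1.31 ± 0.29, adjusted p = 0.00215), and was higher in RT112 at 38 and 48 against 97 and 85 (1.29 ± 0.32, adjusted p = 0.00414). HTR6 rose in TCCSUP from 0 and 0 to 24 and 13 (at least 6.04-fold, adjusted p = 0.00189), and HTR1B in RT112 from 0 and 0 to 4 and 9 (at least 2.50-fold, adjusted p = 0.0077).

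Dopamine receptors were low throughout, with a summed level of at most 2.19 CPM in any library. DRD2, the receptor blocked by antipsychotic drugs, was at 0 in all controls and reached 14 and 8 counts in RT112 (at least 4.27-fold, adjusted p = 0.00776) and 13 and 16 in TCCSUP (at least 4.78-fold, adjusted p = 0.00536). DRD1 rose in TCCSUP from 0 and 0 to 22 and 11 (at least 5.38-fold, adjusted p = 0.00195). With DESeq2 none of these 3 calls held. DRD3, DRD4 and DRD5 had at most 9 counts in any library.

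Glycine receptors pair alpha subunits with the beta subunit GLRB, which anchors them at synapses. GLRB was detected in all 8 groups and rose in J82, from 179 and 190 to 1133 and 1328 counts (log2 fold change 2.64 ± 0.18, adjusted p = 7.95e-08). It was higher in RT112 as well, at 52 and 67 against 178 and 167 (1.75 ± 0.21, adjusted p = 9.08e-06). 253J held 1450 and 1559 in control and 701 and 984 treated (-0.88 ± 0.17, adjusted p = 0.000417) and TCCSUP held 1046 and 838 against 1140 and 888. GLRA3 was the 1 alpha subunit tested, and it rose in J82 from 8 and 8 to 141 and 116 (3.89 ± 0.61, adjusted p = 0.000297) and in TCCSUP from 0 and 0 to 6 and 11 (at least 2.81-fold, adjusted p = 0.00604). J82 thus had both an alpha and the beta gene higher, while GLRA1, the adult spinal alpha subunit, had at most 2 counts anywhere.

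Some calls were lost when 1 library of the line was left out, and the values in parentheses give the highest edgeR adjusted p over such fits. In 253J, GABRB1 (0.0174) was lost without control replicate 2 or treated replicate 3, and GRIK5 (0.037) without any 1 library. GABRB2 in 253J had a log2 fold change of 1.70 to 3.08 over these fits and was lost without control replicate 2 or treated replicate 3, while its adjusted p stayed under 0.01. In J82, GRIN2A (0.0489) was lost without either control or treated replicate 1, GRM8 (0.0729) without control replicate 3 or treated replicate 1, and GRIN3B (0.047) without any 1 library.

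In RT112, CHRNA6 (0.0542), DRD2 (0.0505), GRIN2C (0.0795) and GRIN3B (0.0676) were lost without any 1 library, and GRM8 (0.0119) without either control. GRM4 (0.0205) was lost there without either control or treated replicate 1, HTR1B (0.0486) without either control or treated replicate 2, and GABRE, at a log2 fold change of -1.92, without treated replicate 1. In TCCSUP, DRD2 (0.0375) and HTR3E (0.0635) were lost without any 1 library, GRIK4 (0.0139) and GRM4 (0.0119) without either control, DRD1 (0.0147) and HTR6 (0.0161) without either control or treated replicate 1, and GRIN2C (0.0172) and GLRA3 (0.0331) without either control or treated replicate 2. GRIK5 (0.0451) was lost there without control replicate 1 or either treated library, HTR2B (0.0416) without control replicate 2 or either treated library, and GRIN2A (0.0248), at -2.80 to -1.56 on the log2 scale, without control replicate 2 or treated replicate 1. CHRNA6 and HTR1B in RT112 and GRIN2C, GLRA3 and HTR2B in TCCSUP passed the fold limit by their fitted values, but their bounds from the counts (2.91, 2.50, 2.32, 2.81 and 3.36) lie under it.

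The response differed between cell lines for many members. A test of the interaction of treatment and cell line in edgeR passed an adjusted p of 0.01 for 23 of the 58 members tested (39.7%), against 36.6% of all genes, so the share was near the background. In 253J, 0 of the 10 nicotinic, 3 muscarinic, 7 NMDA, 2 dopamine and 2 glycine receptor genes tested rose, against 9.43% of all genes tested. These families are named because they had no rise, so the 0 is not a test of them. Kainate and GABA-A subunits did rise in 253J, among them GRIK2, GABRB1 and GABRA3, which were called higher in no other line. TCCSUP and RT112 had the most members that rose, and their order changed with the setting: with DESeq2 both had 19, and at an adjusted p under 0.05 with no fold limit RT112 had 29 and TCCSUP 27.

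Some receptor genes lie beside one another. In the gene order of RefSeq, which was matched for 90 of the members, 29 members formed 12 runs of adjacent protein-coding genes. A member rose in 9 of these runs, and in 2 every gene rose in 1 same line, GLRB with GRIA2 in J82 and GABRA3 with GABRQ in 253J. Several runs hold genes that were too low to test and so could not be called, and other adjacent genes were not examined for comparison. On chromosome 5, GABRB2 rose in 4 lines, whereas GABRA6 had 0 counts. On chromosome 11, HTR3A rose in 4 lines beside HTR3B, which was too low to test, and on chromosome 15, CHRNA3 rose in 3 lines between CHRNA5, which had no call, and CHRNB4, which was too low to test.

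Start-site windows of 300 bases were found for 70 members, and those of the genes that rose had the highest median GC content. The median GC content was 69% for 25 of the 36 members that rose in at least 1 line, 62.3% for the 17 tested that rose in none and 54.8% for the 28 not tested, against 58.3% over 27326 promoters. An observed to expected CpG ratio over 0.6 was found in 64%, 47.1% and 39.3% of these groups and in 48.9% of all promoters. A GC box was present in 60%, 58.8% and 39.3%, against 44.6% of all. GGACAG, the right RE1 arm, was present in 24%, 29.4% and 35.7%, against 20.5% of all. The left arm (TTCAGCACC) was present in 0%, 0% and 3.57%, against 0.403% of all, and is too rare for its absence from 25 windows to tell much. A TATA box (TATAAA) was in 0%, 11.8% and 3.57% of the same groups, against 11.9% of all promoters. A cyclic AMP response element (TGACGTCA) was in 0 of the 70 and 1.98% of all. These shares are descriptions, since expression and CpG content are linked across genes, and the absence of a motif applies to the window and not to the gene.

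Neuronal markers rose in all 4 lines. 253J had the fewest genes called higher both among these markers and among the receptors, although it had the largest gain in summed marker level. Of 25 pan-neuronal genes such as SYP, STMN2 and SNAP25, 23 were tested, and 18 rose in RT112, 14 in TCCSUP, 11 in J82 and 10 in 253J, with 0 called lower. The rises were 78.3%, 60.9%, 47.8% and 43.5% of those tested, against 11.4%, 14.2%, 8.81% and 9.43% of all genes tested. Falls over all genes tested were 1.39%, 3.31%, 1.24% and 3.5%. With genes at 0 in one group set at their bound, the median log2 fold changes of this list were 3.66, 3.05, 1.91 and 1.95 in that order, and medians of the other lists are given on the same scale. Their summed level was 153 to 162 CPM in 253J control libraries and 1636 to 1714 CPM in treated ones, 240 to 294 and 664 to 752 in J82, 54.7 to 57.1 and 279 to 329 in RT112, and 822 to 877 and 1335 to 1473 in TCCSUP. SYP, a synaptic vesicle protein, rose in all 4 lines, with log2 fold changes of 3.57 ± 0.23, 5.42 ± 0.26, 3.78 ± 0.24 and 5.38 ± 0.27. The neuronal RNA-binding genes RBFOX3 and ELAVL4 were at 0 in all control libraries, and RBFOX3 reached at most 7 counts with CM-1758. Of 9 leukocyte and endothelial markers 7 were tested. Of these, 2 (28.6%) rose in each of RT112, 253J and TCCSUP and 0 in J82, and 1 fell in TCCSUP. The medians in this order of lines were 0.80, 0.73, 1.58 and 0.28, and CD3E was at 0 in all control libraries. Of the 18 epithelial markers tested, 3 rose in 253J and J82 (16.7% each), 2 in TCCSUP (11.1%) and 0 in RT112, and 1, 0, 1 and 2 fell. Of the 10 mesenchymal markers tested, 8 rose in RT112 (80%), 1 each in 253J and J82 (10% each) and 0 in TCCSUP, and 0, 1, 0 and 3 fell. The part of these markers in the receptor results was not tested.

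REST itself had no call. Its counts were 2229 and 1857 in 253J control and 1531 and 2072 treated (log2 fold change -0.22 ± 0.15, adjusted p = 0.241). The log2 fold change was -0.41 ± 0.15 in J82 (adjusted p = 0.0349), -0.16 ± 0.15 in RT112 (adjusted p = 0.413) and -0.35 ± 0.15 in TCCSUP (adjusted p = 0.0568). The median over 15 genes of REST and its corepressors was -0.10 in TCCSUP, 0.20 in RT112, 0.17 in J82 and 0.00 in 253J. Of these, 1 rose, RCOR2, which went from 3 and 3 to 40 and 29 counts in J82 (3.38 ± 0.66, adjusted p = 0.000936) and from 0 and 0 to 28 and 22 in TCCSUP (adjusted p = 9.93e-05). The share of this list that rose was 6.67% in TCCSUP and J82 and 0% in RT112 and 253J. These shares lie under those of all genes tested, which were 14.2%, 8.81%, 11.4% and 9.43% in the same order. Among 20 neuronal transcription factors, 10 were tested, and 6 rose in TCCSUP, 4 in RT112, 2 in 253J and 1 in J82 (medians 2.17, 1.32, 0.26 and 0.79). The rises were 60%, 40%, 20% and 10% of those tested, against 14.2%, 11.4%, 9.43% and 8.81% of all genes tested. MYT1L fell in J82 from 174 and 310 to 41 and 36 (-2.73 ± 0.61, adjusted p = 0.00234).

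Genes that work with the receptors were counted in the same way. Of 38 receptors for other transmitters (noradrenaline, histamine, ATP, adenosine and others), 26 were tested. Of these, 11 rose in TCCSUP, 8 in J82, 7 in RT112 and 4 in 253J, while 1, 0, 1 and 3 fell. The medians in this order were 1.26, 0.76, 0.86 and 0. The rises were 42.3%, 30.8%, 26.9% and 15.4% of those tested, against 14.2%, 8.81%, 11.4% and 9.43% of all genes tested. Falls over all genes tested were 3.31%, 1.24%, 1.39% and 3.5%. The neurotransmitter receptor genes had rises of 37.9%, 27.6%, 34.5% and 17.2%, so a share of rises above that of all genes was not limited to them. HRH3, the presynaptic histamine receptor, went from 0 and 0 in J82, RT112 and TCCSUP control to 18 and 20, 18 and 20, and 22 and 10 counts, and was at 0 in 253J. Of 47 genes for assembly, anchoring and auxiliary subunits, 42 were tested, and 4 each rose in TCCSUP, RT112 and J82 and 1 in 253J, while 1, 0, 1 and 0 fell (medians 0, 0.24, 0.14 and 0). The shares that rose, 9.52% of those tested in each of the first 3 lines and 2.38% in 253J, were under those of all genes tested in TCCSUP, RT112 and 253J and near it in J82 (14.2%, 11.4%, 9.43% and 8.81%). PLCL1, which binds GABA-A receptor beta subunits, rose in all 4 lines, from 0 and 0 to 238 and 345 counts in 253J (adjusted p = 1.65e-07) and from 23 and 28 to 249 and 235 in J82 (log2 fold change 3.15 ± 0.34, adjusted p = 1.75e-05).

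Transmitter synthesis, transport and breakdown is represented by 44 genes, of which 35 were tested, and 15 rose in TCCSUP, 9 in J82, 7 in RT112 and 6 in 253J, while 2, 1, 1 and 2 fell (medians 2.06, 0.22, 0 and 0). The rises were 42.9%, 25.7%, 20% and 17.1% of those tested, against 14.2%, 8.81%, 11.4% and 9.43% of all genes tested. The falls were 5.71%, 2.86%, 2.86% and 5.71%, against 3.31%, 1.24%, 1.39% and 3.5%. SLC17A7, the vesicular glutamate transporter, rose in all 4 lines, from 0 and 0 counts in 253J, J82 and TCCSUP control to 11 and 14, 119 and 116, and 102 and 111, and from 0 and 2 to 265 and 218 in RT112.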

How the data were processed

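RNA-seq of 4 bladder cancer cell lines (16 libraries) was analysed from 1 table of raw counts per gene symbol, which the authors deposited. The submitters' notes name HISAT2, StringTie and GRCh37, and the paper describes stranded total RNA libraries; the strand setting of the counting is not given in the sources used here. Column names gave the samples, as labelled. Genes were kept with filterByExpr over the 8 groups, scaled by TMM and tested by quasi-likelihood in edgeR 4.0.16 (R 4.3.3), 8 groups in 1 model, with 8 residual degrees of freedom and Benjamini-Hochberg adjustment over all genes tested. Values after ± are standard errors, n = 2 libraries per group. Library totals set the precision: a level of 0 allows up to 3 counts per library, the floor behind every "at least" fold, and this covers counting error only. Ratios against 1 to 3 counts in a group have exact 95% conditional binomial intervals. The fit was tested on simulated data in which only genes well above 0 counts in RT112 control were changed. That test does not cover genes at or near 0 in control, as many of the members were.

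The members and gene lists were chosen with earlier results of these data known. Members are named with values if called in at least 1 line or at 1 CPM or more in a control group, and from each other list REST and at most 4 called genes with the largest mean change; markers named as a check were added. Some genes that this rule names are not reported here, but they remain in all counts. Alternatives were RLE size factors, library size alone, other filters, DESeq2 1.42.0, each line alone, a replicate block, thinned counts and leaving out each library. Promoter windows came from RefSeq (GRCh38.p14), whose coordinates are not those of the counts, and exon lengths from GENCODE; some members have no window in the table used here.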

Additional observations from a re-analysis of the deposited data

Results flagged for a closer look

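For 9 members the change at an adjusted p under 0.05 went in opposite directions in different cell lines, and the edgeR interaction test between treatment and line had an adjusted p under 0.01. They are GLRB (interaction adjusted p = 1.89e-07), GRIN2A (1.82e-05), CHRNA5 (1.87e-05), HTR1D (2.69e-05), HTR7 (2.86e-05), GRIN2C (0.000832), GABRA3 (0.000973), GABRB1 (0.00304) and CHRM2 (0.00913). In all, 23 members passed the interaction test, a share near that of all genes tested. For GRIN2A, GRIN2C, GABRA3 and CHRM2, the lines with a higher level after treatment had 0 counts or at most 8 counts in control, and the lines with a lower level had 62 counts or more in each control library. A line at 0 counts in control cannot go lower, so this pattern was in part fixed in advance. These genes are named because they show it, whereas GLRB and CHRNA5 were higher in J82 from a level well above 0 in control. The rise of CHRM2 in 253J rests on 17 counts in 1 of 2 treated libraries.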

How the results depend on the processing

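Of 76 calls of a member in a cell line, 44 held under every alternative in which they were tested, 32 were lost under at least 1 and 0 changed direction. Without a limit on the fold change and at an adjusted p under 0.05, 17 members were higher in 253J, and 7, 3 and 10 were lower in 253J, J82 and TCCSUP. DESeq2 left 0 falls in 253J, 1 in RT112 and 2 in TCCSUP, library size alone left 2 in TCCSUP, and a filter at a mean of 10 counts over the libraries left 0 in J82, since HTR2B was then not tested. Leaving out 1 library at a time gave 5 to 10 risers in 253J, 13 to 16 in RT112 and 13 to 17 in TCCSUP, and 0 to 1 falls in 253J, 1 to 2 in RT112 and 2 to 5 in TCCSUP. The low values came without 253J control replicate 2, either RT112 control, and TCCSUP control replicate 1 for risers, and for falls without 253J control replicate 2, 253J control replicate 3 or 253J treated replicate 1, RT112 treated replicate 1, and TCCSUP control replicate 2 or treated replicate 1. Apart from the filter, the cause was not tested.

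Replicate numbers are shared between control and treated groups in part. Same-numbered libraries deviated together at a correlation of 0.218 in J82, 0.053 in 253J, 0.043 in RT112 and 0.017 in TCCSUP. With 2 libraries per group these values cannot show whether same-numbered libraries came from the same experiment. With the replicate block, 7 members rose in 253J and 0 fell, and 15 of the 76 calls were lost. Depth limits the members that go from 0 to a few counts, whose fold bounds can lie under the limit of the call.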
